A study of Homo sapiens with 5 samples.

Results

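Peaks of ERG and p53 were examined at 8 genes that encode other transcription factors of the ETS family, namely ETS1, FLI1, ETV1, ETV4, ETV5, SPDEF, EHF and ELF3. A peak was assigned to a gene when it overlapped the gene span widened by 50 kb on each side, with spans given in whole kb of hg19. By this rule 15 of the 14337 ERG replicate 1 peaks and 12 of the 11237 ERG replicate 2 peaks belonged to the 8 genes, and 0 of the 227 and 0 of the 138 p53 peaks did. The lists came from ChIP-seq of untreated VCaP cells, a single established prostate cancer line that expresses ERG from a TMPRSS2-ERG fusion and carries a mutant p53, so both factors were mapped in the same background and no condition without ERG or without mutant p53 was compared. ERG and p53 (antibody DO-1) were each precipitated in 2 samples, and the input sample was not used here. The deposited p53 lists are far shorter than the p53 peak sets that the study describes, and absence from them holds for these lists alone.

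ETS factors share a DNA-binding domain, the ETS domain, that recognises sites with a GGAA core, so members can meet at the same sites and can act on the genes of other members. ETV1, ETV4 and ETV5 form the PEA3 subfamily and are fused to other genes in some prostate cancers that lack an ERG fusion. ETS1 is the founding member, and FLI1 is a close relative of ERG and is best known from blood, endothelium and Ewing sarcoma. SPDEF, EHF and ELF3 are epithelial members, of which SPDEF is known for its role in prostate and other secretory epithelia.

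The 8 genes fell into 3 kinds. ETV4, ETV5, SPDEF and ELF3 had at least 1 ERG region shared by both replicates, that is, a merged stretch that holds a peak of each. ETS1 and FLI1 had ERG peaks in each list but 0 shared regions. ETV1 and EHF had 0 ERG peaks in either list. In all, the 8 windows held 19 merged ERG regions, of which 8 were shared, 7 were in replicate 1 alone and 4 in replicate 2 alone. The shared part was 42.1% (95% Wilson interval 23.1% to 63.7%, counting error only), and over all merged ERG regions it was 58.2%, inside that interval. By list, 8 of 15 replicate 1 peaks recurred (53.3%, 30.1% to 75.2%), against 65.4% of the whole list. In replicate 2, 8 of 12 recurred (66.7%, 39.1% to 86.2%), against 84.2% of the whole list. Both whole-list shares lay inside the intervals, so recurrence at the 8 genes was not distinguishable from that of all peaks at these numbers.

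**Figure D1:**
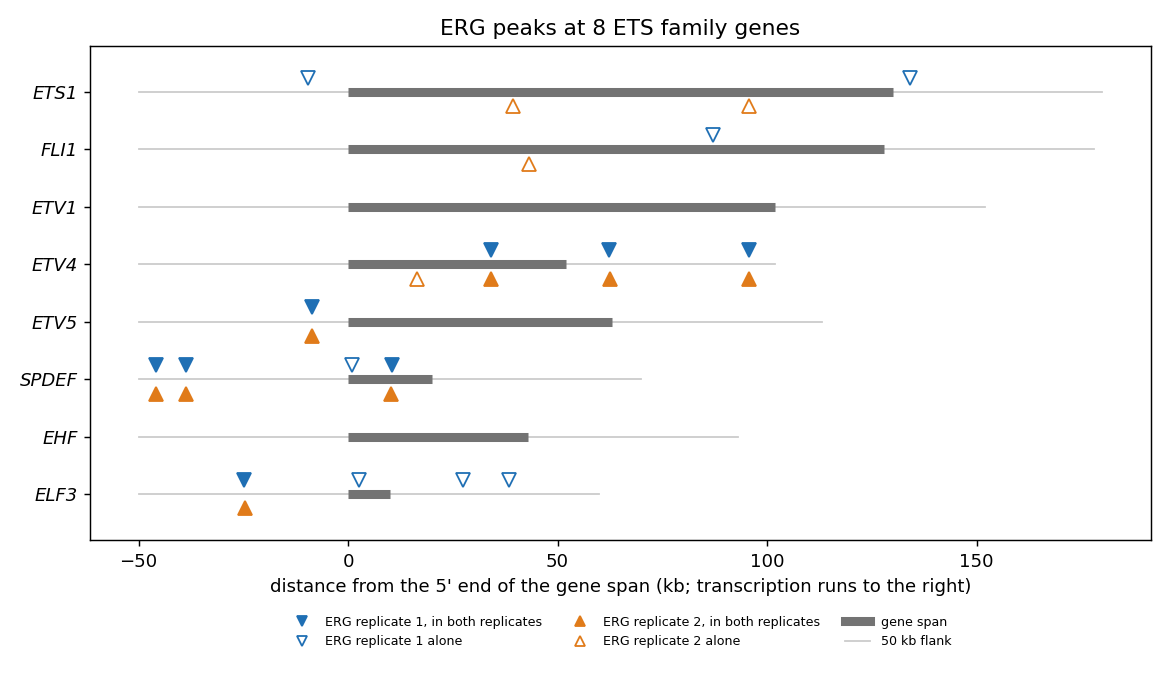
Distance of ERG peak midpoints (kb, x axis) from the 5' end of each gene span (rows), with replicate 1 above and replicate 2 below the line; filled symbols are peaks found in both replicates and open symbols peaks of 1 replicate. Filled symbols appear at ETV4, ETV5, SPDEF and ELF3, open ones alone at ETS1 and FLI1, and none at ETV1 and EHF.

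SPDEF had the widest shared region and, with the 50 kb flank, the highest density of shared regions. Within 50 kb of its span, on chromosome 6, replicate 1 had 4 peaks and replicate 2 had 3, and 3 regions were shared. The region inside the gene lay at chr6:34514276-34515031 and measured 703 bp in replicate 1 and 716 bp in replicate 2. This region was wider than 96.5% of all shared ERG regions, judged by the narrower of the replicate peaks. Its midpoint lay 10.3 kb inside the 20 kb span, counted from the 5' end. Another pair of shared regions lay upstream of the gene, at chr6:34563542-34563820 (262 bp and 245 bp, 38.7 kb from the 5' end) and at chr6:34570672-34571045 (310 bp and 358 bp, 45.9 kb). In the annotation, PACSIN1 and ILRUN are the protein-coding neighbours of SPDEF, and which gene the upstream regions lie in was not determined, since no hg19 annotation was at hand. Of adjoining stretches as long as this window over all chromosomes, 2.58% held at least 3 shared ERG regions and 25.6% at least 1. Chromosome 6 as a whole had 2.41 shared regions per Mb, and the SPDEF window had 25.0. That density depends on the flank, since ETV4 had as many shared regions in a window of 152 kb against 120 kb at SPDEF. With a 100 kb flank SPDEF still had 3 and ETV4 had 5.

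The remaining SPDEF peak was in replicate 1 alone, at chr6:34524012-34524242. Its midpoint lay 0.873 kb inside the 5' end of the span, a distance within the 1 kb rounding of the spans, so the peak may lie at the start itself. The span of 20 kb is longer than the 18.5 kb of the gene in GENCODE. No coordinates were converted between builds. The element near SPDEF shown further below lies at chr6:34503568-34503592 in hg19 and matches chr6:34535791-34535815 in GRCh38. If the shift between builds is the same at the gene start, the peak covers both the RefSeq start and the AGGAAGT match given below. At 231 bp the peak was narrow, with 7.18% of the replicate 1 peaks narrower still, and the nearest replicate 2 peak was 8.98 kb away. The sequence before the start of SPDEF is shown because this peak and a peak of ELF3 were the ones nearest to a gene start outside ETV4. Promoters were matched by symbol in RefSeq (GRCh38.p14) for 4 of the 8 genes, namely ETV1, SPDEF, EHF and ELF3. ETS1, FLI1, ETV4 and ETV5 were not matched. The 250 bases before the RefSeq start, 5′ to 3′ on the strand of the gene, read as follows, with GGAA or its complement TTCC in capitals.
SPDEF, chr6:34556330-34556579, minus strand: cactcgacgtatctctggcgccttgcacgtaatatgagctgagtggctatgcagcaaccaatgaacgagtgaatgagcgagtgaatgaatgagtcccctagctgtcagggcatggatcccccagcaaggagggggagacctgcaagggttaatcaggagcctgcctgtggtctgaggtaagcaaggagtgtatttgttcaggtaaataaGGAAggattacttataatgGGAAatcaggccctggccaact
ELF3, chr1:202010337-202010586, plus strand: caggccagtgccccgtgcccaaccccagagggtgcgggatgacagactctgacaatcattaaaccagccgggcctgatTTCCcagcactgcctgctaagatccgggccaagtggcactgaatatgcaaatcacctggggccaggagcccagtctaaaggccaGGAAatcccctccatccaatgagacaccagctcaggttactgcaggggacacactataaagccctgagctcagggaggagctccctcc

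Each of these stretches held 2 matches to GGAA. In the full 300 bases of the RefSeq entries, which run on past the start, GGAA was matched 4 times for SPDEF, 3 times for ETV1, 2 times for ELF3 and 0 times for EHF, on either strand. Such a match is common, since 95.5% of the 35116 promoters had at least 1, with a median of 3. The longer AGGAAGT was matched in SPDEF alone among the 4, and 8.24% of all promoters held it. The match lay on the opposite strand and began at base 21 of the transcript, and is shown with its flanks and with the match in capitals.
SPDEF, stretch inside the transcript: gcggctgtctgACTTCCTcccagcacatt

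CAGGAAGT, which contains the letters AGGAAGT, and CCGGAAGT were matched in 0 of the 4 genes and in 3.08% and 4.14% of all promoters. These matches describe the letters of the window, and the peak lists hold no summit to set beside them.

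p53 peaks were missing at SPDEF in both lists. The study lists an element near SPDEF that resembles the mutant p53 binding sequence of the CTNNB1 promoter, and it is shown because it falls inside the SPDEF window. By its description, that list is drawn from gene loci that the study counts as bound by mutant p53. The deposited p53 lists are far shorter than the peak sets of the study, so a missing peak here does not decide whether this locus is bound. The element has 25 bases and lies at chr6:34503568-34503592 (hg19, plus strand), 1.41 kb past the 3' end of the span.
Element near SPDEF: ccagccccaagcccagcccttgctc

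It held 0 matches to GGAA on either strand. An exact match was found at 1 place of GRCh38, chr6:34535791-34535815, where GENCODE 44 lists no gene or exon. None of the 4 deposited lists had a peak over it. The nearest ERG peak was 10.7 kb away in each ERG list, and the nearest p53 peaks were several Mb away.

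ETV4 also had 3 shared ERG regions, on chromosome 17. They lay at chr17:41622614-41622997 inside the gene (384 bp and 306 bp), and past the 3' end at chr17:41594400-41594839 (312 bp and 381 bp) and chr17:41561041-41561592 (552 bp and 394 bp). The midpoints of the replicate peaks were 7 bp, 93.5 bp and 40 bp apart. The intragenic region had a midpoint 34.2 kb inside the span. The span reaches to the outermost GENCODE start, and in GRCh38 the RefSeq start of ETV4 lies 33280 bp inside that start. If this distance within the gene is the same in hg19, the region lay about 0.92 kb past the RefSeq start in either replicate, with an uncertainty of 1 kb from the rounding of the spans. A further ETV4 peak, of 250 bp at chr17:41640481-41640730, was in replicate 2 alone and lay 17.5 kb from the nearest replicate 1 peak. Of stretches as long as the ETV4 window, 3.96% held at least 3 shared regions and 30.1% at least 1. Chromosome 17 had 7.05 shared regions per Mb, the highest of the 6 chromosomes that carry these genes, and the ETV4 window had 19.7. DHX8 is the protein-coding neighbour within 50 kb, and whether the regions past the 3' end lie in it or at its start was not determined. With a 10 kb flank ETV4 had 1 shared region.

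ETV5 had 1 shared region and no other ERG peak. It lay at chr3:185835470-185835862, upstream of the gene, with a midpoint 8.67 kb from the 5' end. The peaks of 357 bp and 393 bp overlapped by 357 bp, and their midpoints were 9 bp apart. Of stretches of this length 31.7% held at least 1 shared region, so a single region is not unusual for a window of this size. The neighbouring protein-coding gene is DGKG, and whether the region lies in it was not determined.

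ELF3, on chromosome 1, was the gene where the replicates differed most in number, with 4 peaks in replicate 1 and 1 in replicate 2. The shared region, chr1:201951879-201952581, lay 24.8 kb upstream of the 5' end. Its peaks measured 703 bp and 372 bp, and their midpoints were 157.5 bp apart, the largest such distance among the 8 shared regions. The other 3 peaks were in replicate 1 alone. They lay at chr1:201979562-201979815 in the gene (254 bp, 2.69 kb inside the span), chr1:202004248-202004513 (266 bp) and chr1:202015336-202015701 (366 bp) past the 3' end. In GRCh38 the RefSeq start of ELF3 lies 2642 bp inside the GENCODE start, so by the same reckoning as for ETV4 the first of these peaks lay at the RefSeq start within the 1 kb rounding. The nearest replicate 2 peak was 27.0 kb, 51.7 kb and 62.8 kb from these 3 peaks, so none had a listed replicate 2 peak close by. Signal below the calling threshold cannot be seen in these lists. In 24% of stretches of this length there was at least 1 shared region. TIMM17A and RNPEP are the protein-coding neighbours, and whether the shared region lies in one of them or at its start was not determined. With a 10 kb flank ELF3 had 0 shared regions.

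Within 5 kb of the 5' end of a span, 0 shared ERG regions were found over the 8 genes. Replicate 1 alone had 2 peaks there, those of SPDEF and ELF3, and replicate 2 had 0. When the RefSeq start was taken in place of the span end, 1 shared region qualified, that of ETV4.

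**Figure D2:**
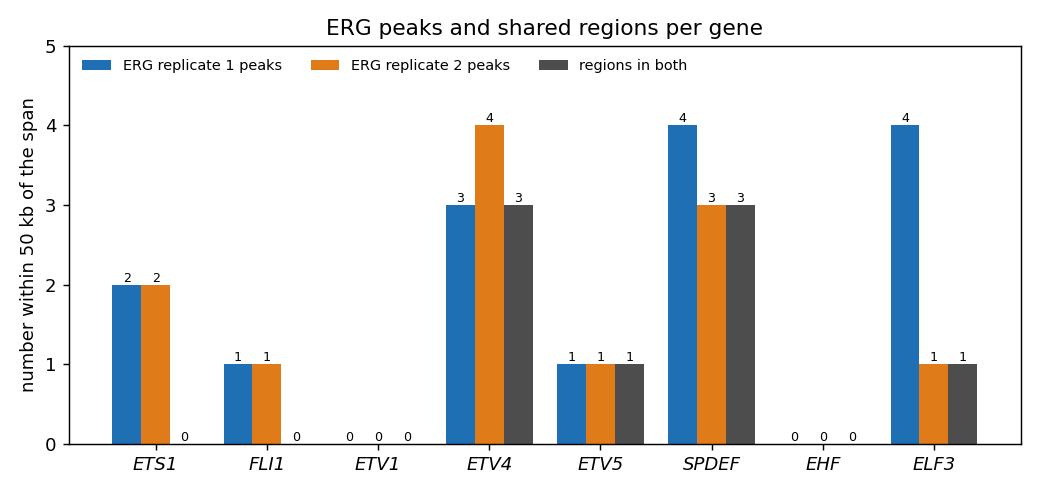
Number of ERG peaks in replicate 1 (blue) and replicate 2 (orange) and of shared regions (grey) within 50 kb of each gene span. SPDEF and ETV4 each reach 3 shared regions, ETV5 and ELF3 have 1, and ETS1 and FLI1 have peaks in each replicate but 0 shared.

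ETS1 and FLI1 are neighbours on chromosome 11, and their windows overlap by 2 kb, in which no peak lay. At ETS1 each list had 2 peaks, and at FLI1 each had 1. The ETS1 peaks of replicate 1 lay at chr11:128323624-128323950 (327 bp, 4.21 kb past the 3' end) and chr11:128467379-128467625 (247 bp, 9.50 kb upstream). Those of replicate 2 lay inside the gene, at chr11:128362222-128362413 (192 bp) and chr11:128418570-128418759 (190 bp). The FLI1 peaks were intragenic, at chr11:128642852-128643068 in replicate 1 (217 bp) and chr11:128599155-128599352 in replicate 2 (198 bp). No peak lay close to one of the other replicate, with 38.3 kb to 48.6 kb between them at ETS1 and 43.5 kb at FLI1. Of the 6 regions 0 were shared, which allows a share of up to 39.0% (Wilson), while at ETV4, ETV5, SPDEF and ELF3 together 8 of 13 were shared (61.5%, 35.5% to 82.3%). The split of the genes follows from these counts, so no test of the difference was made. The nearest shared ERG region, chr11:129189029-129189896, lay 505 kb past the FLI1 span and 731 kb from the ETS1 span. Windows without a shared region are common, since 38.9% of stretches as long as the ETS1 window and 38.7% of those as long as the FLI1 window held at least 1.

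These single-replicate peaks were narrow. The narrowest peaks of the lists measured 215 bp in replicate 1 and 186 bp in replicate 2, and the medians were 351 bp and 306 bp. At FLI1, 0.983% of replicate 1 peaks and 6.22% of replicate 2 peaks were narrower than the peak there. At ETS1 the replicate 2 peaks had 2.13% and 3.21% of the list below them, and the replicate 1 peaks 13.9% and 42.9%. Over the 8 genes, recurring peaks measured 262 bp to 703 bp in replicate 1 (median 370.5 bp, n = 8) and 245 bp to 716 bp in replicate 2 (median 376.5 bp, n = 8). The other peaks measured 217 bp to 366 bp in replicate 1 (median 254 bp, n = 7) and 190 bp to 250 bp in replicate 2 (median 195 bp, n = 4). The ranges overlapped in both lists. Width is the one property of strength that the lists keep, and its part in the missing overlap was not tested.

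**Figure D3:**
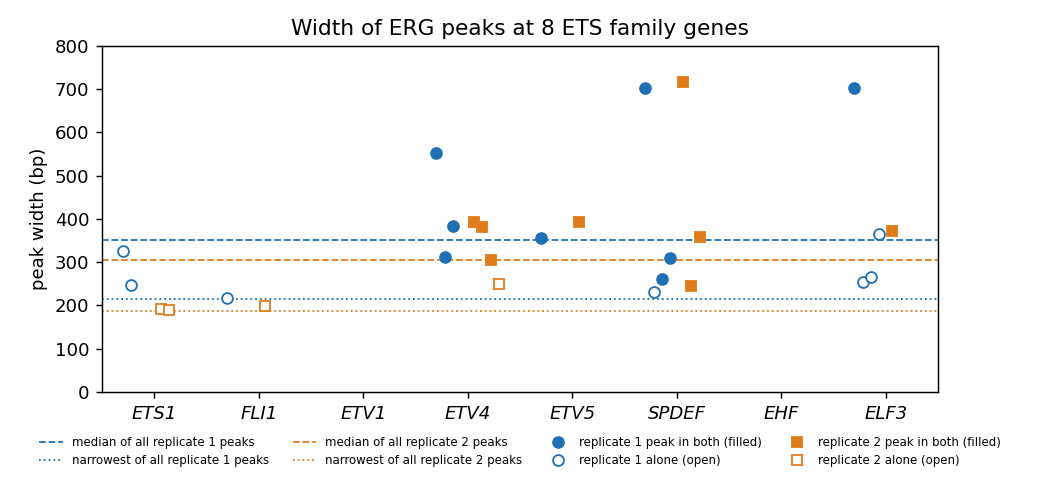
Width in bp (y axis) of each ERG peak by gene (x axis) and replicate, filled where the peak was found in both replicates; dashed lines are the medians and dotted lines the narrowest peaks of the whole lists. Open symbols at FLI1 and the replicate 2 ones at ETS1 sit near the dotted lines, and the SPDEF peaks of 703 bp and 716 bp stand highest beside an ELF3 peak of 703 bp.

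ETV1 and EHF had 0 ERG peaks in either replicate. The closest ERG region to ETV1 was shared and lay at chr7:13461874-13462229, 468 kb past the 3' end of its span (336 bp and 312 bp). That to EHF was also shared and lay at chr11:34779782-34780135, 94.8 kb past the 3' end (354 bp and 292 bp). At a window of 100 kb EHF therefore had 1 shared region, while ETV1, ETS1 and FLI1 still had 0, ETV4 had 5, ETV5 had 2, SPDEF had 3 and ELF3 had 1. At least 1 shared region was present in 35.7% of stretches as long as the ETV1 window and 29.0% of those as long as the EHF window, so the lack of a region at these genes is the more frequent outcome. Within the PEA3 subfamily the counts of shared regions were thus 0 at ETV1, 3 at ETV4 and 1 at ETV5, and among the epithelial members 3 at SPDEF, 0 at EHF and 1 at ELF3.

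Taking the 8 windows as 1 stretch of 1.346 Mb, ERG had 5.94 shared regions per Mb, against 3.12 per Mb of the genome spanned by the peaks. The ratio was 1.90 with a 95% exact binomial interval of 0.822 to 3.75, which includes 1. Counted by the peaks of 1 list, the ratio was 2.33 in replicate 1 (15 peaks, 1.31 to 3.85) and 2.38 in replicate 2 (12 peaks, 1.23 to 4.16), and both of these intervals lie above 1. The intervals treat peaks as independent and cover counting error only. A density above that of the whole genome was thus seen in each list but not shown for the shared regions. Against the density of the chromosomes that carry the genes, the ratio of shared regions was 1.43. The ratios of the single lists were not computed on that background, so whether they exceed it is not known. Gene density and copy number were not taken into account. Stretches of the genome where no peak can be called were not removed from its length, which lowers the genome density and raises the ratios.

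p53 had 0 peaks within 50 kb of any of the 8 genes in either replicate, and none of the 8 shared ERG regions met a p53 peak. The nearest p53 peaks were 0.639 Mb from ETV4 and 0.674 Mb from ETV5, both in replicate 1, and 1.00 Mb from FLI1 and 1.23 Mb from ETS1, both in replicate 2. For ETV1 the distances were 7.52 Mb and 47.1 Mb in replicates 1 and 2. At SPDEF they were 4.61 Mb and 5.26 Mb, at ELF3 10.0 Mb and 9.32 Mb, and at EHF 15.3 Mb and 14.2 Mb. Of stretches as long as the ETS1 window, the longest of the 8, 2.02% held a p53 peak of either replicate, so a window without one is the usual case in these short lists.

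**Figure D4:**
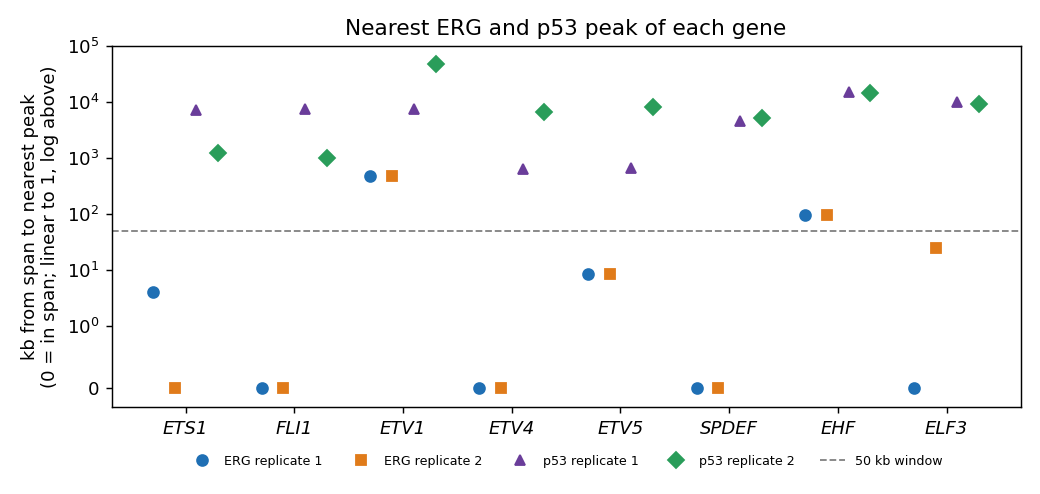
Distance in kb (y axis, linear to 1 and logarithmic above) from each gene span to the nearest peak of the 4 lists, where 0 means a peak inside the span and the dashed line is the 50 kb limit. Every p53 symbol lies above the line, and ERG symbols lie above it at ETV1 and EHF alone.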

How the data were processed

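The submitters' processing notes name CASAVA 1.4, Bowtie2 2.3.3.1 and MACS2, with hg19 as reference. The authors called peaks per sample without pooling, and the methods of the study give more than 1 p-value threshold. Each deposited list has 4 columns (chromosome, start, end, peak name), with no score, p-value, summit or read count, so depth per peak is unknown here. The 8 genes and the lists were chosen with earlier results of these data known. All members are named, with the 3 widest shared regions of each gene, the one nearest the 5' end and every p53 peak.

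Positions count from 1. Peaks overlapping by at least 1 bp were merged, and gene strand came from GENCODE 44 (GRCh38). Backgrounds are adjoining stretches as long as each window between the outermost peaks of each chromosome. As a check of the build, an ERG peak lay within 10 kb of the 5' end of 4 genes with the hg19 spans and of 2 with GRCh38 positions, which does not settle it. Other ETS genes need an hg19 annotation and are not analysed here. Replicates are called biological by the study, and the labels do not name separate cultures. Intervals cover counting error only. Overlaps were tested on simulated data. Python 3.11.15, numpy 2.4.6, scipy 1.17.1 and matplotlib 3.10.9 were used.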

Additional observations from a re-analysis of the deposited data

How the results depend on the processing

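Of 37 alternatives, 23 stayed within 1.5 times of the count reported (or inside the 95% interval of a share or ratio) and 14 did not. The 8 shared ERG regions fell to 2 within the gene spans, 3 with a 10 kb flank and 5 when peaks narrower than the list median were left out. Counting all peaks of 1 list gave 12 without ERG replicate 1 and 15 without ERG replicate 2. The 15 replicate 1 peaks became 5, 8 and 6 under the first 3 of these settings, and the 12 replicate 2 peaks became 6, 7 and 7. Among the wider peaks 5 of 6 replicate 1 peaks recurred (83.3% in place of 53.3%, against 60.7% of the wider peaks of the whole list) and 5 of 7 replicate 2 peaks (71.4% in place of 66.7%, against 77.6%). The Wilson intervals of these shares were 43.6% to 97.0% in replicate 1 and 35.9% to 91.8% in replicate 2. Each included the share of the wider peaks of its whole list. Shared regions at the 5' end rose from 0 to 1 within 10 kb and to 1 with the RefSeq start, and peaks of 1 list gave 0 without ERG replicate 1 and 2 without ERG replicate 2. The density ratio of 1.90 was 1.43 against the chromosomes of the genes. Against the whole genome it was 2.33 without ERG replicate 2 and 2.38 without ERG replicate 1. The intervals of these last 2 ratios lay above 1. The RefSeq start and the single lists at the 5' end were chosen after seeing the data. p53 had 0 peaks under every alternative, the widest a 100 kb flank. No paired analysis was possible because these are counts of peaks and no model was fitted. A site without a listed peak may still be occupied below the calling threshold.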
